A study of Homo sapiens with 4 samples.

Results

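The genes described here encode the subunits of AMP-activated protein kinase (AMPK) and the kinases that switch it on. They were chosen by name: PRKAA1, PRKAA2, PRKAB1, PRKAB2, PRKAG1 and PRKAG2 for the subunits, and STK11, STRADA, CAB39 and CAMKK2 for the upstream kinases. All 10 were found among the 61533 gene identifiers of the count table, and all 10 passed the filter on low counts, which left 15950 genes. The samples were 2 libraries with short hairpin RNA against TFE3 (shTFE3; genotype label TFE3-KD) and 2 with control hairpin RNA (shControl; genotype label WT). Every sample was Caki-1, an established human renal cell carcinoma line, carried lentivirus, grew in McCoy's 5A medium with serum and was selected with puromycin at 1 µg/ml for 3 days, and the labels record no withdrawal of glucose. How many hairpin sequences were used, and whether replicates came from separate infections, is not stated. The p-values therefore cover only how far these 4 libraries scatter, and that scatter may be technical.

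AMPK is a trimer of a catalytic alpha, a scaffolding beta and a nucleotide-binding gamma subunit. It is known for sensing a rise of AMP and ADP when energy runs short, as in cells without glucose, and for switching off synthesis and switching on fuel breakdown and autophagy. STK11 (also called LKB1), held in an active complex with the pseudokinase STRADA and the scaffold CAB39, phosphorylates the activation loop of alpha, and CAMKK2 does the same in response to calcium. TFE3 is a transcription factor of lysosomal and metabolic genes, and AMPK is known to act on FNIP1, a partner of FLCN in the control of TFE3 and its relative TFEB.

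In shTFE3 cells, PRKAA2, the gene of the alpha2 catalytic subunit, fell to 62.4% of its shControl level, and CAB39 rose to 113%. The other 8 genes did not pass the test. Called genes were thus 2 of 10, while 23.3% of all tested genes were called in the quasi-likelihood test of edgeR, at a threshold of 0.05 on the p adjusted by Benjamini-Hochberg, so the share of the AMPK genes lay near that of all genes. By direction, 1 of 10 rose and 1 of 10 fell, against 10.3% and 12.9% of all tested genes. The balance over all genes depended on the scaling: 1650 rose and 2059 fell, but 2119 rose and 1680 fell with library totals alone. The median log2 fold change of the 10 genes was -0.02, against 0.0015 over all tested genes.

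The alpha and beta subunits come as pairs of similar genes, so the closest stretches of their coding sequences are shown first, because reads of 150 bases have to tell them apart. The longest identical run between the coding sequences of PRKAA1 (chromosome 5) and PRKAA2 (chromosome 1) spanned 24 bases, at coding positions 103 to 126 and 70 to 93, and lies in the glycine-rich loop of the kinase domain. The run is in capitals, with 20 bases to either side (GENCODE release 29 transcripts, 5′ to 3′).
PRKAA2: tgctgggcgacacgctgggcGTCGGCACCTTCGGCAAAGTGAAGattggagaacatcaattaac
PRKAA1: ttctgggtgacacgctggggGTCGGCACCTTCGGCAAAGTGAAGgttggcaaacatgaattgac
Between PRKAB1 (chromosome 12) and PRKAB2 (chromosome 1) the longest identical run spanned 20 bases, at coding positions 373 to 392 of both.
PRKAB2: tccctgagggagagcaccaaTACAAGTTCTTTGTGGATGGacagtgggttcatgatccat
PRKAB1: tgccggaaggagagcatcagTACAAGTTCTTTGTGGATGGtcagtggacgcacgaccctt
For PRKAG1 and PRKAG2 it was 12 bases. These runs were measured over the transcript of each gene with the longest coding sequence, and over those whole transcripts they were no longer. All are shorter than a read, so these paralogs differ within any stretch of read length in those transcripts.

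TFE3 is known to bind E-box motifs, and the promoters of the called genes are shown for that reason, beside the promoter of PRKAA1, the paralog that was not called. Each line gives the 250 bases before the RefSeq start site (GRCh38.p14, 5′ to 3′ on the strand of the gene). PRKAA2 lies at chr1:56645064-56645313, plus strand, CAB39 at chr2:230712592-230712841, plus strand, and PRKAA1 at chr5:40798178-40798427, minus strand.
PRKAA2: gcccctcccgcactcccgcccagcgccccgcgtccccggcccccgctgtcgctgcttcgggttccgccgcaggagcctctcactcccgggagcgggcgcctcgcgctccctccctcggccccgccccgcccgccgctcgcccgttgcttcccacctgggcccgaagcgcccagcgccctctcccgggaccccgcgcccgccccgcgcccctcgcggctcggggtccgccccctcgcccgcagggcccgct
CAB39: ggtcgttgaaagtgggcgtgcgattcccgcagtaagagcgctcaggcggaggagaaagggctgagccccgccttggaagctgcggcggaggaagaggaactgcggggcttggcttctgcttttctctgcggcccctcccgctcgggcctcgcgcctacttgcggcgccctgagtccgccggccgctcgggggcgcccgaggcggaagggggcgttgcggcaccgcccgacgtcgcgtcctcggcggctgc
PRKAA1: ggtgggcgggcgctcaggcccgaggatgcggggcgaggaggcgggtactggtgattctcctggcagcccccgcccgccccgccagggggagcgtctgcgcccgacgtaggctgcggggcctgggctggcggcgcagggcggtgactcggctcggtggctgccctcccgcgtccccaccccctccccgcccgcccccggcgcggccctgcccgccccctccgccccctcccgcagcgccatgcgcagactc
These stretches held 83.2% G and C in PRKAA2, 72% in CAB39 and 80.8% in PRKAA1, against a median of 58% over all promoters, and 39, 33 and 31 CpG dinucleotides, against a median of 11. The E-box CACGTG was searched on both strands from 250 bases before to 50 bases after the start. It was found in 0 of the 9 promoters of these genes in the table (STRADA had no entry), while 7.26% of all 35116 promoters and 9.98% of those of tested genes held it. The longer form TCACGTG contains that motif, and 3.71% of all promoters held it. The absence of a match says only that these letters are not in this window.

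The knockdown lowered its target. TFE3 counts were 1259 and 1190 in shTFE3 and 2231 and 2179 in shControl (log2 fold change -0.92, standard error (SE) 0.062, edgeR adjusted p 5.6e-11), and SLC36A1, the amino acid transporter named by the series, had 275 and 294 counts against 426 and 417 (-0.64, SE 0.095, edgeR adjusted p 1.8e-05). Of the relatives of TFE3, MITF also fell (-0.39, SE 0.096, edgeR adjusted p 0.00389), and TFEB did not pass (-0.21, SE 0.14, edgeR adjusted p 0.30). Library totals ranged from 17270180 to 17742519 counts. Of 8 genes listed as markers of a renal epithelial line, 6 reached at least 50 counts in a library, PAX8 among them. The summed counts of the list were 57660 and 57821 in shTFE3 and 52294 and 53474 in shControl. Most of that sum came from VIM, with 20372 counts in shTFE3 replicate 1, and MET, with 19641, so it mainly follows those genes. The keratin gene KRT18 of that list fell (log2 fold change -0.28, edgeR adjusted p 0.0019). The keratin gene KRT8 (-0.11, edgeR adjusted p 0.142) and VIM (0.14, edgeR adjusted p 0.0545) did not pass. EPCAM had 8 to 21 counts and PAX2 had 0 in all libraries. Of 9 markers of leukocytes, endothelium, fibroblasts, erythroid cells and hepatocytes, 6 had at most 3 counts in any library. Another 2 reached at least 50 counts in a library: endothelial PECAM1, with 48 to 68, and fibroblast COL1A1, with 112 to 143. The summed counts of the list, mostly from COL1A1 and PECAM1, were 191 and 181 in shTFE3 and 192 and 206 in shControl. The labels name no batch.

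**Figure D1:**
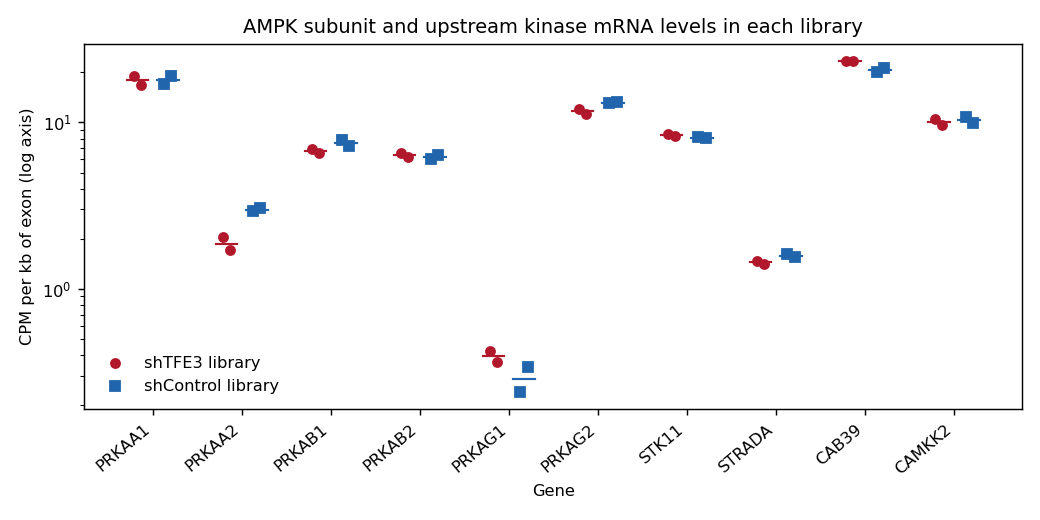
Levels of the 10 genes in each library, as library-scaled counts (CPM) per kilobase of exon on a log axis; circles are the 2 shTFE3 libraries, squares the 2 shControl libraries, and short lines the group means. CAB39 and PRKAA1 were the highest, PRKAG1 was the lowest, and the shTFE3 libraries of PRKAA2 lie apart from and under its shControl libraries.

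Levels were compared between genes as CPM per kilobase of exon, using exon lengths of GENCODE release 29. In shControl the order from high to low was CAB39, PRKAA1, PRKAG2, CAMKK2, STK11, PRKAB1, PRKAB2, PRKAA2, STRADA and PRKAG1. No neighbours in that order overlapped over the 4 libraries, though PRKAB1 and PRKAB2 nearly met, with lowest and highest values of 6.58 and 6.54 CPM per kb. CAB39 averaged 23.4 ± 0.16 CPM per kb in shTFE3 and 20.7 ± 0.66 in shControl, and PRKAG1 0.394 ± 0.044 in shTFE3 and 0.288 ± 0.07 in shControl (SD, n = 2 each). PRKAA1 averaged 17.9 CPM per kb in both groups. PRKAG2 averaged 11.7 in shTFE3 and 13.2 in shControl, CAMKK2 10.1 and 10.3, PRKAB1 6.77 and 7.54, and PRKAB2 6.35 and 6.18 CPM per kb. PRKAA2 averaged 1.87 CPM per kb in shTFE3 and 3.00 in shControl, so the mRNA of the minor alpha gene stood nearest to that of STRADA. The order was the same in shTFE3. In GENCODE release 29, exons of PRKAA1, PRKAA2, PRKAB2, CAB39 and CAMKK2 share no bases with another annotated gene. Those of PRKAB1, PRKAG2 and STK11 share 137, 84 and 149 bases with a gene on the opposite strand. That release gave an exon length for 58356 of the 61533 identifiers, so overlaps with the other counted genes were not checked. Within the STK11 complex, STRADA mRNA was the scarcest, at 1.44 ± 0.044 CPM per kb in shTFE3 and 1.58 ± 0.048 in shControl. STK11 stood at 8.35 ± 0.17 and 8.07 ± 0.074 (SD, n = 2 each). Exon length merges all annotated transcripts, 10.9 kb for STRADA, with 18.1% shared with AC046185.1, so its level per kb is uncertain. In CPM, STRADA was also the lowest of the complex, averaging 15.6 in shTFE3 and 17.2 in shControl, beside 72.2 and 69.7 for STK11.

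Among the catalytic subunits, PRKAA2 (ENSG00000162409, chromosome 1, 56645322 to 56715335, plus strand, GRCh38) had 342 and 283 counts in shTFE3 and 468 and 487 in shControl. Scaled to the library, these were 19.0 and 15.9 CPM in shTFE3, against 27.4 and 28.6 CPM in shControl. The groups did not overlap, and both shTFE3 libraries lay well under both shControl libraries. The log2 fold change was -0.68 (SE 0.097, 95% interval -0.88 to -0.48, edgeR adjusted p 9.65e-06). A log2 fold change at or below this value was seen in 3.98% of all tested genes. The call was kept with each of the 4 libraries left out, where the log2 fold change ran from -0.81 to -0.56, and was lost when no low-count filter was applied (-0.69, with an adjusted p of 0.0762 in edgeR). In bulk RNA, fewer cells that express a gene and less of its RNA per cell cannot be told apart. In the authors' deposited table, which lists 546 genes, each with an absolute log2 fold change of at least 0.585, PRKAA2 was the only one of the 10 genes, with a log2 fold change of -0.68, an SE of 0.143 and an adjusted p of 4.43e-05.

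PRKAA1 (ENSG00000132356, chromosome 5, 40759379 to 40798374, minus strand), the gene of the alpha1 catalytic subunit, had 2242 and 1964 counts in shTFE3 and 1898 and 2117 in shControl. In CPM it had 125 and 110 in shTFE3 and 111 and 124 in shControl, so the groups overlapped almost fully. Its log2 fold change was -0.0023 (SE 0.068, 95% interval -0.14 to 0.14, edgeR adjusted p 0.988), and the sign depended on which library was left out.

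PRKAA2 made up 9.67% and 9.18% of the summed alpha mRNA in the shTFE3 libraries, against 14.8% and 13.9% in the shControl libraries, on the scale of CPM per kb. Its share was thus lower in both shTFE3 libraries, by 4.9 percentage points between the means (exact permutation test, two-sided, p = 0.333, the smallest that 2 against 2 libraries can give). PRKAA1 supplied the rest. The summed level of both alpha genes was 21.0 and 18.5 CPM per kb in shTFE3 and 19.9 and 22.0 in shControl, which overlapped.

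**Figure D2:**
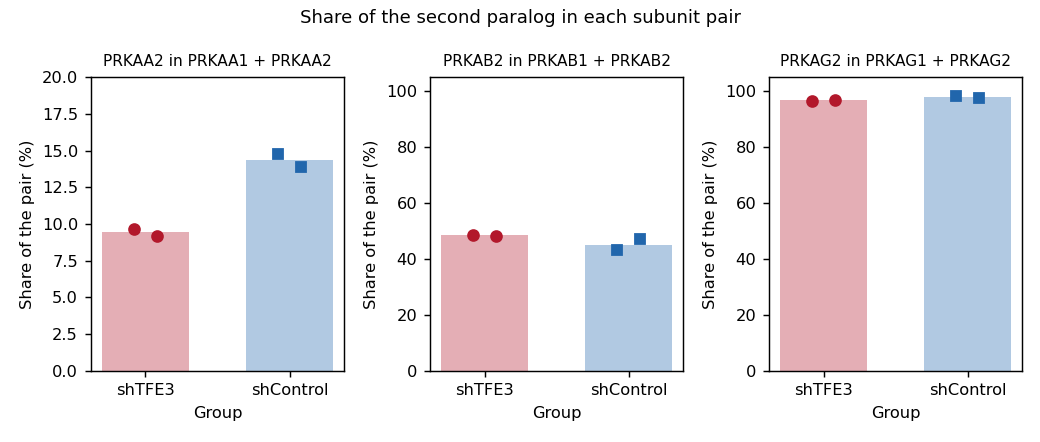
Share of PRKAA2, PRKAB2 and PRKAG2 in the summed CPM per kb of its subunit pair, in percent; bars are group means from 0, points are the 2 libraries of each group, and the axis of the alpha pair ends at 20%. PRKAA2 held 9.18% to 9.67% of the alpha pair in shTFE3 and 13.9% to 14.8% in shControl.

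The beta genes did not pass the test. PRKAB1 (ENSG00000111725, chromosome 12, 119667753 to 119681630, plus strand), the beta1 scaffold, had 781 and 731 counts in shTFE3 and 841 and 764 in shControl. Its level was 43.5 and 41.1 CPM in shTFE3 and 49.3 and 44.9 CPM in shControl, lower in both shTFE3 libraries without overlap (log2 fold change -0.16, SE 0.076, edgeR adjusted p 0.152). The value was -0.087 without shControl replicate 1. PRKAB2 (ENSG00000131791, chromosome 1, 147155106 to 147172550, minus strand), the beta2 scaffold, had 642 and 598 counts in shTFE3 and 559 and 592 in shControl. Its CPM values of 35.7 and 33.6 in shTFE3 and 32.8 and 34.8 in shControl overlapped (log2 fold change 0.038, SE 0.08, edgeR adjusted p 0.786). PRKAB2 held 48.5% and 48.3% of the beta pair in shTFE3, against 43.2% and 47.0% in shControl, a difference of 3.31 percentage points (exact permutation test, two-sided, p = 0.333). The shControl libraries lay further apart than this, and the difference was 1.41 points without shControl replicate 1 and 5.21 points without shControl replicate 2.

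Of the gamma genes, PRKAG2 (ENSG00000106617, chromosome 7, 151556111 to 151877125, minus strand) carried nearly all counts. It had 1468 and 1354 counts in shTFE3 and 1505 and 1520 in shControl, or 81.7 and 76.1 CPM against 88.2 and 89.2 CPM. Both shTFE3 libraries were lower, without overlap, but the log2 fold change of -0.17 (SE 0.064, 95% interval -0.30 to -0.037) missed the threshold, with an edgeR adjusted p of 0.0586. PRKAG1 (ENSG00000181929, chromosome 12, 49002274 to 49018825, minus strand) had only 32 and 27 counts in shTFE3 and 17 and 24 in shControl, and the change was 0.45 on the log2 scale, with an SE of 0.298 (edgeR adjusted p 0.299). It was 0.22 without shControl replicate 1 and 0.72 without shControl replicate 2. PRKAG2 held 96.6% and 96.9% of the gamma pair in shTFE3, against 98.2% and 97.5% in shControl. The level of PRKAG1 is uncertain, because 12.7% of its exon bases are shared with DDN-AS1 on the opposite strand in GENCODE release 29 and the strand setting and the annotation of the counting are not given. Their part in its low count was not tested, and the gamma shares and the place of PRKAG1 as the lowest gene carry the same uncertainty. The muscle gamma gene PRKAG3 had 1 and 0 counts in shTFE3 and 0 and 0 in shControl, under the 3 counts taken as the limit of detection.

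Of the STK11 complex, CAB39 alone passed. CAB39 (ENSG00000135932, chromosome 2, 230712845 to 230821075, plus strand) had 2267 and 2223 counts in shTFE3 and 1847 and 1930 in shControl. Its level was 126 and 125 CPM in shTFE3 and 108 and 113 CPM in shControl, higher in both shTFE3 libraries. The log2 fold change was 0.18 (SE 0.06, 95% interval 0.057 to 0.30, edgeR adjusted p 0.0298), and 47.9% of all tested genes had an absolute change at least as large. The call was lost without shTFE3 replicate 1 (adjusted p 0.14) or 2 (0.136), without shControl replicate 1 (0.274) or 2 (0.0802), by DESeq2 (0.0997) and when no low-count filter was applied in edgeR (0.164).

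STK11 (ENSG00000118046, chromosome 19, 1177558 to 1228435, plus strand) had 1315 and 1266 counts in shTFE3 and 1197 and 1180 in shControl. In CPM, 73.2 and 71.2 in shTFE3 stood against 70.2 and 69.3 in shControl, narrowly apart, with a log2 fold change of 0.05 (SE 0.065, 95% interval -0.085 to 0.18, edgeR adjusted p 0.644). STRADA (ENSG00000266173, chromosome 17, 63682336 to 63741986, minus strand) had 287 and 272 counts in shTFE3 and 300 and 287 in shControl, or 16.0 and 15.3 CPM against 17.6 and 16.9 CPM (log2 fold change -0.14, SE 0.101, edgeR adjusted p 0.356). AC046185.1, annotated on the same strand and with 0 counts, shares 18.1% of the exon bases of STRADA, so its level is uncertain. CAMKK2 (ENSG00000110931, chromosome 12, 121237691 to 121298308, minus strand), the calcium-dependent upstream kinase, had 1306 and 1192 counts in shTFE3 and 1268 and 1175 in shControl. Its 72.7 and 67.0 CPM in shTFE3 and 74.3 and 69.0 CPM in shControl overlapped (log2 fold change -0.037, SE 0.069, edgeR adjusted p 0.756). Over all 10 genes, 7 did not overlap between the groups in CPM, while 60.3% of all tested genes did not.

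**Figure D3:**
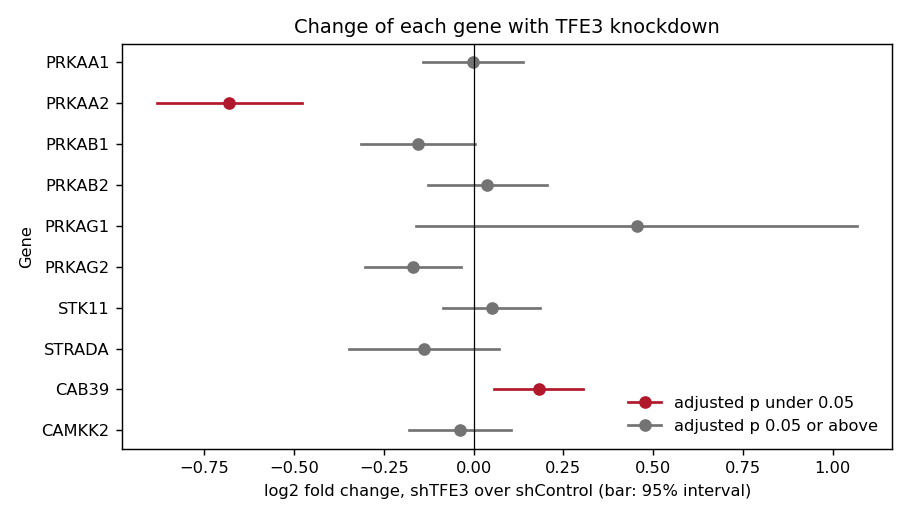
Log2 fold change of shTFE3 over shControl for each of the 10 genes, with 95% intervals from the edgeR fit; red marks an adjusted p under 0.05. PRKAA2 lies at -0.68 and CAB39 at 0.18, and the interval of PRKAG1, the gene with the fewest counts, is the widest.

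Genes that act with these were taken from lists. Of 6 further partners, 5 were tested and 0 were called by edgeR; 0 of them had an unadjusted p under 0.05, and DESeq2 and limma-voom also called 0. The log2 fold changes were -0.077 for STRADB and 0.13 for CAB39L, the paralogs of STRADA and CAB39, -0.17 for CAMKK1, the paralog of CAMKK2, -0.035 for MAP3K7 and 0.13 for its activator TAB1. The edgeR adjusted p values ran from 0.19 for CAMKK1 to 0.776 for MAP3K7. Of the 12 kinases related to AMPK that STK11 also activates, 1 fell, 0 rose and 11 did not pass, with a median of 0.076, while 12.9% of all tested genes fell and 10.3% rose. The one that fell was SIK1, a salt-inducible kinase, with 15.3 and 17.3 CPM in shTFE3 and 30.8 and 34.1 CPM in shControl (log2 fold change -0.997, SE 0.095, edgeR adjusted p 1.9e-08). SIK1 has a near-identical copy in the genome, so its separate level is uncertain. SIK2 and SIK3 had log2 fold changes of 0.15 and 0.13 and did not pass.

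Of 30 AMPK substrates, 28 were tested, and 6 fell, 5 rose and 17 did not pass, with a median of 0.027; over all tested genes 12.9% fell and 10.3% rose. PFKFB2 and PFKFB3, which make an activator of glycolysis, fell by 0.70 and 0.42 on the log2 scale, PFKFB2 to 52.1 and 49.0 CPM in shTFE3, against 84.8 and 78.9 CPM in shControl. FNIP1, the partner of FLCN, fell by 0.35, the arrestin-domain protein TXNIP by 0.32, the mitochondrial coactivator PPARGC1A by 0.32 and the kinase PAK2 by 0.27. The rises were those of KLC2, a kinesin light chain, at 0.59 (45.6 and 48.8 CPM in shTFE3, 31.8 and 31.0 CPM in shControl), the triglyceride lipase PNPLA2 at 0.25, the Rab regulators TBC1D4 at 0.23 and TBC1D1 at 0.17, and TSC2, an inhibitor of mTORC1, at 0.19. The substrates ACACA (0.13, edgeR adjusted p 0.0915) and ULK1 (0.11, 0.298) did not pass. Without shTFE3 replicate 2, 2 substrates fell. The rises numbered 1 without shTFE3 replicate 1 or 2, 2 without shControl replicate 1 and 3 without shControl replicate 2.

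At the lysosome, AMPK and STK11 are known to meet on the Ragulator complex and AXIN1 when aldolase lacks its substrate. Of 15 genes listed for this docking, for aldolase glucose sensing or for control of the Rag GTPases (docking genes below), 14 were tested. Of these, 6 fell, 0 rose and 8 did not pass, with a median of -0.076. Over all tested genes 12.9% fell and 10.3% rose, and the list was chosen with earlier results of these data known. The largest falls in the list were those of FLCN, which regulates the Rag GTPases, by 0.63, and its partner FNIP2, by 0.56. FLCN had 24.4 and 26.6 CPM in shTFE3, against 39.3 and 39.6 CPM in shControl. Of the 5 Ragulator genes, LAMTOR1 fell by 0.37, LAMTOR3 by 0.40 and LAMTOR5 by 0.33. LAMTOR3 had 38.0 and 38.6 CPM in shTFE3 and 49.8 and 51.0 CPM in shControl. ATP6V0C, of the proton pump, fell by 0.35 (edgeR adjusted p 0.0293). That call was lost in 6 of 12 alternative fits. Among them were DESeq2 (adjusted p 0.26), and edgeR with library totals alone (0.0527) or no low-count filter (0.255). The log2 fold change of ATP6V0C ran from -0.47 to -0.25 over the alternatives. ALDOA had a log2 fold change of -0.036 (edgeR adjusted p 0.806), but 53.5% of its exon bases are shared with other genes and its level is uncertain. Without shTFE3 replicate 1 or 2, 3 of these genes fell.

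Of 13 phosphatases and ubiquitin factors known to act on AMPK, 10 were tested, 3 rose, 0 fell and 7 did not pass, with a median of 0.13, against 10.3% of all tested genes that rose and 12.9% that fell. MAGEA3 and MAGEA6, which were not tested, had 1 to 4 and 0 to 1 counts. The rises were small: UBE2O, which targets alpha2 for breakdown, by 0.23, TRIM28 by 0.22 and the ligase MKRN1 by 0.19 on the log2 scale. They numbered 0 without shTFE3 replicate 1 or 2 or shControl replicate 2. Of 12 enzymes that form or use AMP, 9 were tested, 4 fell, 1 rose and 4 did not pass, with a median of -0.26, against 12.9% of all tested genes that fell and 10.3% that rose. The nucleotidase NT5C2 fell by 0.41, adenosine kinase ADK, which makes AMP from adenosine, by 0.38. The adenylate kinases AK4 and AK5 fell by 0.28 and 0.31. For AK5 the call (edgeR adjusted p 0.0239) was lost in 6 of 12 alternative fits, DESeq2 (adjusted p 0.236) among them. Its log2 fold change ran from -0.32 to -0.27 over these alternatives. The cytosolic adenylate kinase AK1 rose by 0.78, with 94 and 90 counts in shTFE3 and 60 and 42 in shControl. Without shTFE3 replicate 1 or 2, 2 of the enzymes fell, and AK1 was not called without either of them or without shControl replicate 2. When no low-count filter was applied, 1 of the related kinases, 1 substrate and 1 docking gene fell, and 0 genes of these lists rose.

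**Figure D4:**
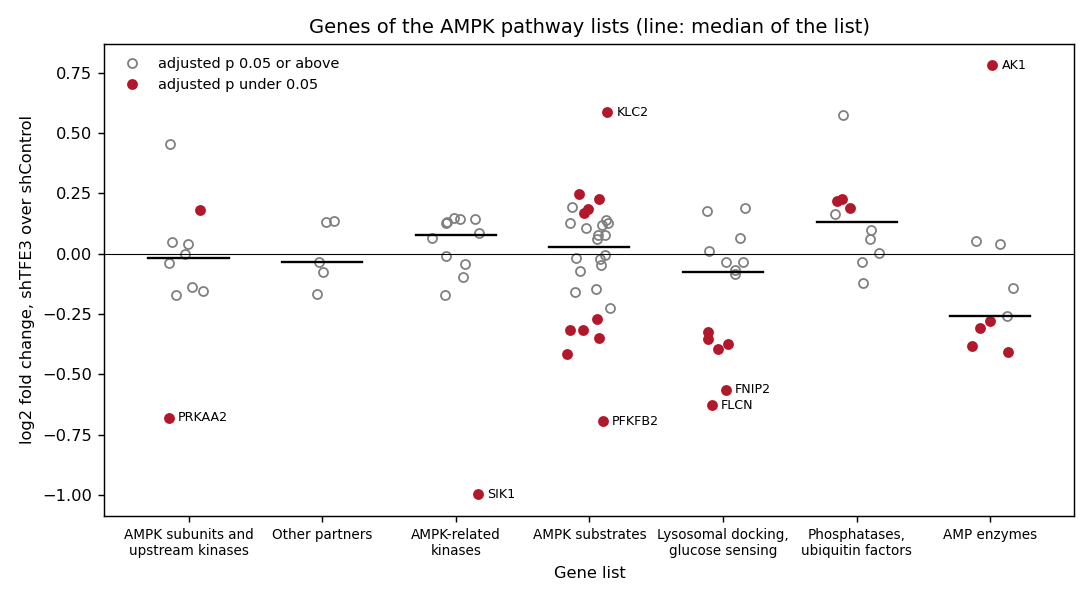
Log2 fold change of shTFE3 over shControl for tested genes of each list; filled points have an adjusted p under 0.05, open points do not, and the line is the median of the list. SIK1, PFKFB2, PRKAA2, FLCN and FNIP2 are the labelled falls, and AK1 and KLC2 the labelled rises.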

How the data were processed

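The authors deposited raw read counts per Ensembl gene for 4 polyadenylated RNA libraries read as paired 150-base reads. The submitters' processing notes list build hg38 and the tools STAR, featureCounts, Trim Galore and DESeq2. Not given in the sources used here are the tools' versions, the annotation, the strand setting and how multiply matching reads were handled. The authors' deposited table of changed genes gives log2 fold changes and adjusted p-values of their own, printed only as theirs.

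Counts were tested as deposited with edgeR 4.0.16 (R 4.3.3): TMM factors, filterByExpr by group, group as the only term, the quasi-likelihood test and Benjamini-Hochberg adjustment over all 15950 genes at 0.05. The SE is the absolute log2 fold change over the square root of the test statistic, and 95% intervals use 24.4 degrees of freedom. CPM values use the TMM factors. Totals per library lay between 17270180 and 17742519 counts; at this depth a count of 3 is the limit of detection, for counting error only. Through the gene name table, 61369 of the 61533 identifiers got a symbol, and 149 more through GENCODE. Exon lengths, coordinates and overlaps come from GENCODE release 29 on GRCh38, and promoters from RefSeq (GRCh38.p14). Genes were named by rule: all 10 genes, TFE3, SLC36A1, all further partners, and up to 6 called genes of a list with the smallest p; other genes were chosen after their values were seen. The genes and lists were chosen with earlier results of these data known. The procedure was also run on counts simulated from the spread fitted to these 4 libraries. Such a run cannot show how far separate infections would scatter. Alternatives were other normalizations and filters, DESeq2 1.42.0, limma-voom 3.58.1, a replicate term, and each library left out.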

Additional observations from a re-analysis of the deposited data

How the results depend on the processing

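PRKAA2 kept its direction in 12 of 12 alternatives and its call in 11, and CAB39 kept its direction in 12 and its call in 5. With no filter on low counts, where 31954 genes were tested, 0 AMPK genes rose and 0 fell; 104 of all genes rose and 280 fell, 0 substrates rose and 1 fell, 1 docking gene fell, 0 ubiquitin factors rose, and 0 AMP enzymes rose and 0 fell. SLC36A1 then had a log2 fold change of -0.65 (edgeR adjusted p 0.0508). By DESeq2, 0 AMPK genes rose, 743 of all genes rose and 1197 fell, 2 substrates rose and 0 AMP enzymes rose. With library totals alone, which raised the median of all genes to 0.038, 8 substrates rose. The replicate numbers share no stated origin, and same-numbered libraries deviated with a correlation of -0.069 over 12180 genes; with the replicate block 0 AMPK genes rose (CAB39 adjusted p 0.0523) and 3 substrates rose. On raw counts without exon length, the PRKAA2 share fell by 6.33 percentage points.

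With 1 library left out, 0 AMPK genes rose and 1 fell each time. Of all genes 367 to 1008 rose and 676 to 1507 fell, of substrates 1 to 3 rose and 2 to 6 fell, 3 to 6 docking genes fell, 0 to 2 ubiquitin factors rose, and 0 to 1 AMP enzymes rose and 2 to 4 fell. The log2 fold change of PRKAA1 then ran from -0.092 to 0.082, of PRKAB2 from -0.0053 to 0.0802 and of CAMKK2 from -0.095 to 0.019; that of PRKAA1 was 0.034 with library totals alone and 0.0065 with at least 50 counts in 2 libraries. The beta share ran from 1.41 to 5.21 points, the alpha share from -5.32 to -4.47 and the gamma share from -1.47 to -0.772. The cause of these shifts was not tested. With 1 library left out, the lone library of a group is assumed to vary like the other group. Low counts limit PRKAG1, whose 95% interval ran from -0.16 to 1.07.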
